A study of Homo sapiens with 4 samples.

Results

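The genes described here encode components of PML nuclear bodies and of the SUMO pathway. They are PML, SP100 and DAXX of the bodies, the modifiers SUMO2 and SUMO3, the SUMO ligase PIAS1, and the SUMO-targeted ubiquitin ligases RNF4 and RNF111. These 8 genes were chosen by symbol from the 26255 gene symbols of the deposited table, and all 8 were found. RNA was sequenced from TOV21G cells, an established human line from an ovarian clear cell carcinoma, with 1 library in each of 4 groups. The control received no drugs. The second culture received As2O3 (arsenic trioxide) at 1 µM, the third GSK458, an inhibitor of PI3K and mTOR, at 0.1 µM, and the last both drugs at these doses. Treatment lasted 48 h in the 3 treated cultures, and the sources used here give no time or vehicle for the control. All values therefore describe 1 cell line and 1 culture per condition.

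PML nuclear bodies are spherical assemblies in the nucleus, built on the PML protein and held together by conjugated SUMO and by SUMO-interacting motifs. SUMO is a small protein that is attached to lysines by a cascade of enzymes that starts with the E1 enzyme (SAE1 with UBA2) and ends with E3 ligases, and is removed by SENP proteases. Arsenic is known to bind PML protein directly, after which PML is heavily SUMO-modified, ubiquitinated by RNF4 and degraded. In acute promyelocytic leukaemia this removes the PML-RARA fusion protein. These are events at the level of protein, and the table holds RNA only.

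With no replicate, no difference below has an error or a p-value. Levels are FPKM, fragments scaled to transcript length and library size, so they can be compared between genes. Differences are on the log2(FPKM + 1) scale, which understates the change of low genes, and were taken over the 12260 genes whose mean reached 1 FPKM. Thresholds of 2-fold and 1.5-fold were applied on that scale, while ratios are of the FPKM themselves, so a ratio just past a threshold can miss it. The 8 genes all passed this filter. Read counts are unknown; the steps between low values put the other libraries at 85.8% to 109% of the reads of the control, if a step is 1 read. HMOX1, a known target of arsenic stress, stood at 1375 and 1949 FPKM in the libraries labelled with As2O3 and at 30.3 and 47.2 FPKM in the others. Of 10 clear cell carcinoma markers 8 passed the filter, while NAPSA stood at 0.66 to 1.06 FPKM and EPCAM at 0.61 to 1.71 FPKM. The summed level of 5 fibroblast markers was 1.92 to 4.69 FPKM, most of it COL1A1. That of 5 immune markers was 1.01 FPKM in the control and 4.32, 1.35 and 2.87 FPKM in the As2O3, GSK458 and combined cultures, most of it CD68, whose part in any result was not tested. That of 4 endothelial markers was at most 0.079 FPKM. PTPRC, CD3E, COL3A1, LUM and KDR were listed at 0 in every library.

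None of the 8 genes was at least 2-fold apart in any comparison. PML and SP100 were higher in each treated library than in the control, by 1.45-fold to 1.78-fold, and the other 6 genes stayed within 1.38-fold over the 4 libraries. Of all tested genes, 3.48% were at least 2-fold apart between As2O3 and control, 6.22% between GSK458 and control, and 7.56% between both drugs and control. For both drugs the figure was 0.962% against GSK458 alone and 6.56% against As2O3 alone, and 3.38% departed from additivity by that much. At a threshold of 1.5-fold, PML was higher with As2O3 (7.43% of all tested genes were), SP100 was higher with GSK458 (8.61%) and PML was higher with both drugs (9.93%). PML also departed from additivity downward by that much (7.57%). The SP100 call with GSK458 and the PML departure lay at the threshold, and each was lost in some settings. Over 7 other settings the SP100 difference ran from 0.49 to 0.63 and the PML departure from −0.63 to −0.46. PML with GSK458 had a ratio of 1.53 but missed 1.5-fold on the log2(FPKM + 1) scale, and passed it with a pseudocount of 0.1 FPKM or upper-quartile scaling. Neither of them nor any other of the 8 genes was 1.5-fold apart between both drugs and GSK458 (3.73% of all tested genes) or between both drugs and As2O3 (21.1%). The median over the 8 genes was 0.09 for As2O3, −0.04 for GSK458 and −0.01 for the combination, beside medians over all tested genes of 0.01, −0.01 and −0.01.

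**Figure D1:**
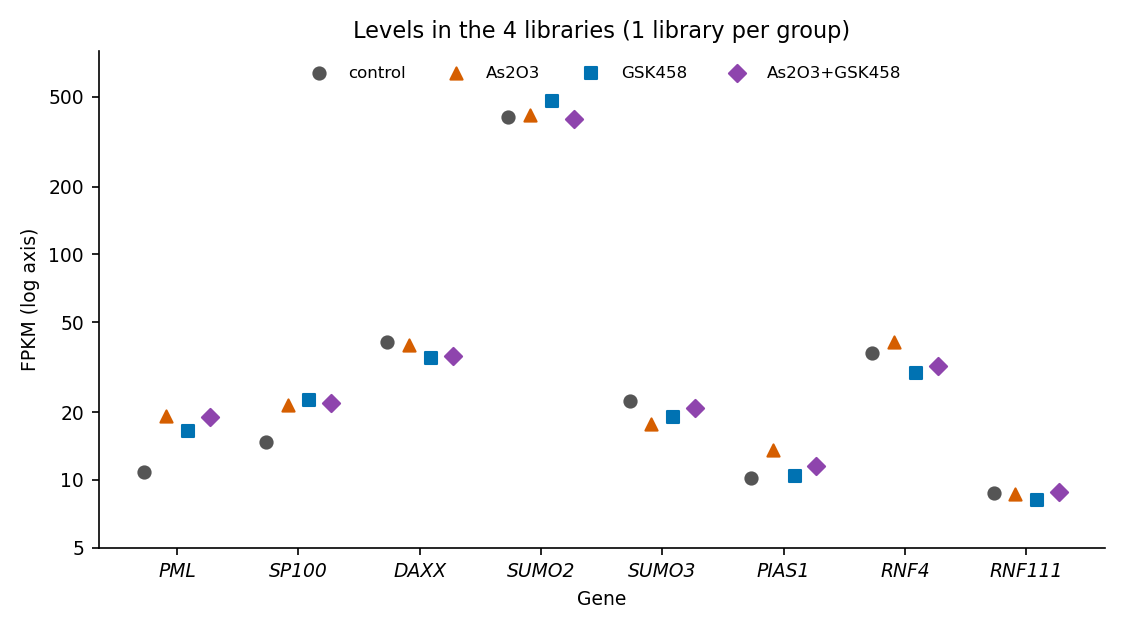
Level of each of the 8 genes (FPKM, log axis) in the control, As2O3, GSK458 and combined libraries, 1 point per library, with no error since each group is 1 library. PML and SP100 are lowest in the control, at 10.8 and 14.8 FPKM, and SUMO2 stands near 400 FPKM in a panel where the other genes lie between 8.15 and 40.9 FPKM.

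PML is the scaffold protein without which the bodies do not form. Its level was 10.8 FPKM in the control, 19.2 FPKM with As2O3, 16.5 FPKM with GSK458 and 18.9 FPKM with both drugs. The control was the lowest library, and the 3 treated libraries lay close together. Against the control, PML was 1.78-fold higher with As2O3, a log2 difference of 0.77, and 7.09% of tested genes were at least as far apart in either direction. It was 1.53-fold higher with GSK458 (log2 difference 0.57, at least as far in 19.7% of genes) and 1.75-fold higher with both drugs (0.76, 13.7%). These 3 comparisons share the control library, so they are not independent of each other.

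Pairs without the control library gave smaller values for PML. Adding As2O3 to GSK458 went with a ratio of 1.15, a log2 difference of 0.19 that 34.4% of tested genes matched or passed. Adding GSK458 to As2O3 went with a ratio of 0.987, a log2 difference of −0.02 that was above 0 when libraries were rescaled to equal sums or by the upper quartile. The departure from additivity, unlike these pairs, includes the control library. On that measure the combination lay 0.59 below the sum of the single-drug differences. Of tested genes, 13.9% departed from that sum by as much in either direction.

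SP100 encodes a SUMO-modified partner of PML in the bodies and, like PML, is known as an interferon-induced gene. It stood at 14.8 FPKM in the control, 21.5 FPKM with As2O3, 22.7 FPKM with GSK458 and 21.9 FPKM with both drugs. As for PML, the control was the lowest library, and the treated libraries lay closer to each other than to it. SP100 was 1.45-fold higher with As2O3 (log2 difference 0.51), 1.54-fold higher with GSK458 (0.59) and 1.48-fold higher with both drugs (0.53). In the pairs without the control it differed by −0.05 on adding As2O3 to GSK458 and by 0.02 on adding GSK458 to As2O3. Its departure from additivity, which includes the control library, was −0.56.

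A control at least 0.5 log2 units below each treated library, as for PML and SP100, was found for 370 of the 12260 tested genes, or 3.02%, and a control at least 0.5 above each of them for 312 genes, or 2.54%. That size was chosen after the values were seen. Whether the control culture or the treatments set PML and SP100 apart cannot be told apart with 1 control library. By the distance between centred log2 profiles over the 4 libraries, searched over the 9155 genes whose mean reached 5 FPKM, the genes most like PML included FAM102A (8.28, 14.8, 12.9 and 15.4 FPKM in the order control, As2O3, GSK458, both) and C16orf45, at distances of 0.058 and 0.068. Those most like SP100 were YPEL1 (4.98, 7.69, 8.17 and 7.71 FPKM), LOC389906 and TSG101, at distances of 0.025 to 0.035. SP100 was the 168th nearest gene to PML, at a distance of 0.25.

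DAXX, the third protein of the bodies, is a chaperone that deposits histone H3.3 together with ATRX and is drawn to the bodies by SUMO. Its RNA stood at 40.8 FPKM in the control, 39.8 FPKM with As2O3, 34.7 FPKM with GSK458 and 35.5 FPKM with both drugs. The libraries without GSK458 were the higher pair and the libraries with GSK458 the lower pair. How many of all tested genes had that order was not counted. The log2 difference with GSK458 was −0.23 without As2O3 and −0.16 with it, sizes that 56.9% and 70.2% of tested genes matched or passed. With As2O3 it was −0.04 and, in the presence of GSK458, 0.03. The ratio of PML to DAXX RNA was 0.265 in the control, 0.482 and 0.476 with the single drugs As2O3 and GSK458, and 0.533 with their combination.

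SUMO2 and SUMO3 encode closely related modifiers that can form chains, the form that RNF4 and RNF111 recognise. SUMO2 was by far the most abundant of the 8 RNAs, at 408 FPKM in the control, 414 FPKM with As2O3, 479 FPKM with GSK458 and 400 FPKM with both drugs. The GSK458 library was the highest and the others lay close together. The log2 difference with GSK458 was 0.23, and adding As2O3 to GSK458 went with −0.26, which 20.8% of tested genes matched or passed. RefSeq lists 20 pseudogenes named for SUMO2 and the deposited table lists none of them, so reads from such copies could be counted for SUMO2 and its value is uncertain.

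SUMO3 stood at 22.5 FPKM in the control, 17.6 FPKM with As2O3, 19.1 FPKM with GSK458 and 20.9 FPKM with both drugs. The control was the highest library and As2O3 alone the lowest. Against the control its log2 differences were −0.33 for As2O3, −0.23 for GSK458 and −0.10 for the combination. The combination lay 0.46 above the sum of the single-drug differences, the highest departure among the 8 genes, which 22.8% of tested genes matched or passed. SUMO2 RNA was 18.1 times that of SUMO3 in the control and 19.1 times with both drugs, but 23.5 times with As2O3 alone and 25.1 times with GSK458 alone.

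PIAS1 encodes a SUMO E3 ligase able to modify PML. It stood at 10.2 FPKM in the control, 13.6 FPKM with As2O3, 10.4 FPKM with GSK458 and 11.6 FPKM with both drugs. Both libraries with As2O3 were above both libraries without it, an order that was not counted over all tested genes. The log2 difference with As2O3 was 0.38 without GSK458, a ratio of 1.33, and 0.14 with it, and 29.5% and 45.2% of tested genes were at least as far apart. With GSK458 the difference was 0.02 alone, which was below 0 with libraries rescaled to equal sums, and −0.22 on top of As2O3.

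RNF4 encodes the ubiquitin ligase that recognises SUMO chains on PML after arsenic. It stood at 36.6 FPKM in the control, 40.9 FPKM with As2O3, 29.7 FPKM with GSK458 and 31.9 FPKM with both drugs. Both libraries with GSK458 were below both libraries without it, an order that was likewise not counted over all tested genes. The log2 difference with GSK458 was −0.30 alone, a ratio of 0.809, and −0.35 on top of As2O3, a ratio of 0.780. With As2O3 it was 0.15 alone and 0.10 on top of GSK458. With the values as deposited, RNF4 was the single gene of the 8 with 1 sign in both pairs of each drug. With libraries rescaled to equal sums PML and PIAS1 also had this trait, and with upper-quartile scaling PML and SUMO2 did. The share of all tested genes with it was not counted. Differences of this size were common, since 47.0% and 42.1% of tested genes matched or passed those of GSK458 and 65.7% and 59.2% those of As2O3. RNF4 RNA was 3.39 times that of PML in the control, and 2.13, 1.79 and 1.68 times that of PML in the As2O3, GSK458 and combined cultures.

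RNF111, also called Arkadia, encodes another SUMO-targeted ubiquitin ligase, known for its role in TGF-beta signalling. It varied least of the 8, with 8.78 FPKM in the control, 8.66 FPKM with As2O3, 8.15 FPKM with GSK458 and 8.86 FPKM with both drugs, a ratio of 1.09 between the highest and the lowest. Its differences ran from −0.10 to 0.11 in the comparisons of library pairs. It was the least abundant of the 8 RNAs in every library, and the RNF4 to RNF111 ratio ran from 3.60 to 4.72. In GENCODE release 29 the RNF111 gene overlaps SLTM on the opposite strand (11.9 to 15.9 FPKM). The overlap is of whole genes, and shared exons were not looked for. Reads from shared bases can be told apart only if strand was used in counting, on which the sources used here say nothing. Others of the 8 genes also overlap protein-coding genes. Among these overlaps, RNF4 with FAM193A (5.92 to 6.91 FPKM) and SUMO2 with JPT1 lie on the same strand, where strand does not help. PIAS1 overlaps CALML4 (1.36 to 2.22 FPKM) on the opposite strand.

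**Figure D2:**
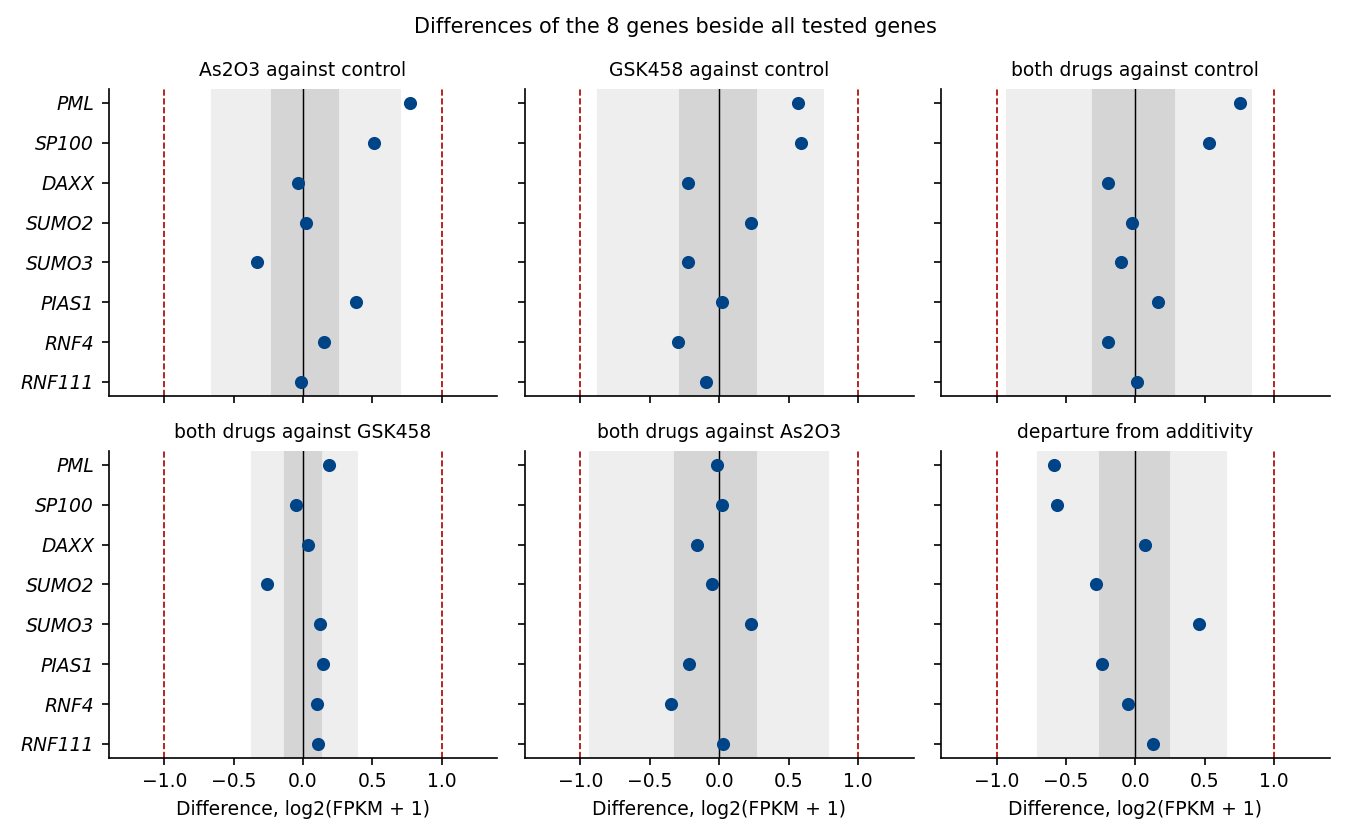
Difference of each of the 8 genes on the log2(FPKM + 1) scale (x axis) in the 5 comparisons of library pairs and in the departure from additivity; dark and light grey bands hold the central 50% and 90% of the 12260 tested genes, and dashed lines mark 2-fold. PML with As2O3 (0.77) lies just outside the light band, whose upper edge is 0.70, and no point passes a dashed line.

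Each drug was measured in pairs of libraries that share none, without and with the other drug. With As2O3, PML, RNF4 and PIAS1 were higher in both pairs, none was lower in both, and 5 went opposite ways. With GSK458, SP100 was higher in both pairs, DAXX and RNF4 were lower in both, and 5 went opposite ways. The sign was thus shared by 3 of 8 genes for each drug, beside 58.4% of all tested genes for As2O3 and 71.3% for GSK458. The count rests on differences near 0: with libraries rescaled to equal sums or by the upper quartile it was 4 of 8 for As2O3 and 5 of 8 for GSK458. The second differences of PML with As2O3 (0.19) and of SP100 with GSK458 (0.02) were smaller than the first ones.

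**Figure D3:**
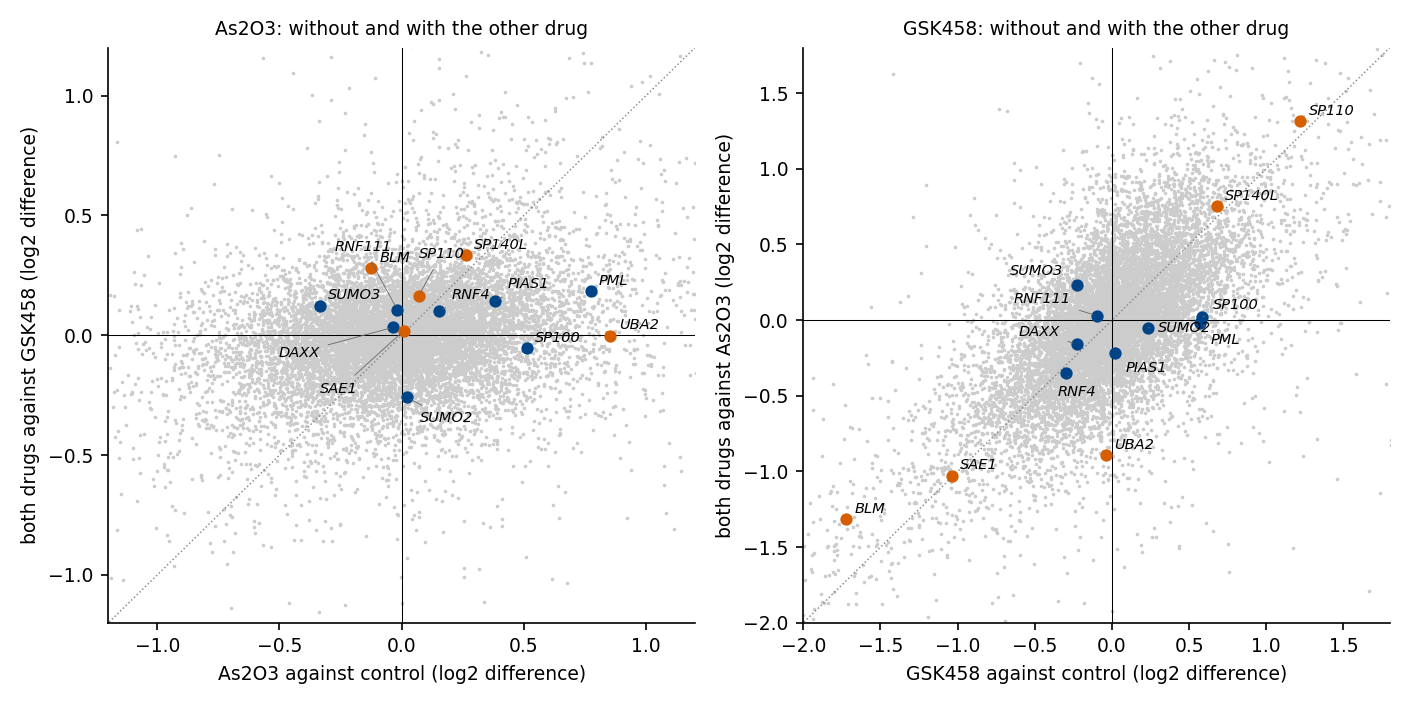
Log2 difference of each gene with As2O3 (left) and with GSK458 (right), without the other drug on the x axis and with it on the y axis; grey points are tested genes within the axis limits, blue points the 8 genes and orange points further genes of the pathway, and the dotted line marks equal values. PML and SP100 lie far to the right near 0 on the y axis in the GSK458 panel, while SP110 and SAE1 lie near the dotted line.

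The remaining genes of the SUMO cycle were read from lists that also hold the 8 genes where they belong. Among SUMO proteins and conjugation enzymes 6 of 7 genes passed the filter, SUMO4 being near or at 0. SAE1, the smaller subunit of the E1 enzyme, was at least 2-fold lower with GSK458. It stood at 95.9 FPKM in the control, 96.5 FPKM with As2O3, 46.2 FPKM with GSK458 and 46.8 FPKM with both drugs. The 2 libraries with GSK458 lay at about the same level, far below the others, with log2 differences of −1.04 without As2O3 and −1.03 with it. With As2O3 the differences of SAE1 were 0.01 and 0.02. At that threshold 3.87% of tested genes were lower with GSK458 alone and 4.27% on top of As2O3. The call rests on a value at the threshold: it was lost in both pairs with a pseudocount of 5 FPKM or upper-quartile scaling.

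UBA2, the catalytic partner of SAE1, was named after its values were seen. It stood at 30.3 FPKM in the control, 55.6 FPKM with As2O3, 29.5 FPKM with GSK458 and 29.5 FPKM with both drugs. As2O3 alone was the high library, with a log2 difference of 0.85 from the control, while both libraries with GSK458 stood level. GSK458 on top of As2O3 went with −0.89. The ratio of SAE1 to UBA2 RNA was 3.16 in the control, and 1.73, 1.56 and 1.59 in the As2O3, GSK458 and combined cultures.

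None of 12 genes on the list of SUMO E3 ligases, which includes the RANBP2 partner RANGAP1, was at least 2-fold apart in any comparison. Their median with As2O3 was 0.21 and 9 of 12 were above 0, beside 0.01 and 51.2% over all tested genes. With GSK458 the median was −0.07, beside −0.01 over all tested genes. The median for As2O3 on top of GSK458 was 0.09, with 10 of 12 genes above 0, beside 0.003 and 50.5% over all tested genes. The 2 genes farthest apart were ZNF451, a ligase for SUMO2 and SUMO3 chains, at 9.91, 15.7, 9.25 and 10.6 FPKM, and NSMCE2, a subunit of the SMC5/6 complex, at 16.6, 22.8, 22.0 and 19.8 FPKM. ZNF451 was high in the As2O3 library alone, with a difference of 0.62, and NSMCE2 was lowest in the control.

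The list of SUMO proteases had 10 genes, including the related NEDD8 protease SENP8, and none was at least 2-fold apart on the log2(FPKM + 1) scale. The medians were 0.16 with As2O3, with 8 of 10 above 0, −0.01 with GSK458 and −0.08 for the combination against the control, beside 0.01 (51.2% above 0), −0.01 and −0.01 over all tested genes. SENP8 was farthest, at 2.0, 1.69, 1.34 and 0.80 FPKM. For both drugs against the control its difference was −0.74, and −1.23 with a pseudocount of 0.1 FPKM, past 2-fold. DESI2 followed at 13.7, 19.0, 11.0 and 11.4 FPKM, high in the As2O3 library. Of the proteases that act on SUMO2 and SUMO3 chains, SENP6 stood at 13.7 to 16.2 FPKM and SENP7 at 9.77 to 13.0 FPKM, both with the control as the lowest library.

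The list of SUMO-targeted ubiquitin ligases and their partners had 12 genes, none at least 2-fold apart. With GSK458 their median was −0.21 alone, with 9 of 12 below 0, and −0.20 on top of As2O3, with 8 of 12 below 0. Over all 12260 tested genes the medians were −0.01 and −0.02, with 6193 and 6394 genes below 0. VCP, the segregase that extracts ubiquitinated proteins, was farthest, at 134 FPKM in the control, 126 FPKM with As2O3, 87.3 FPKM with GSK458 and 102 FPKM with both drugs. UBE2N, an E2 enzyme for ubiquitin chains, stood at 40.3, 31.6, 26.3 and 26.0 FPKM. The VCP difference with GSK458 was −0.62 alone and −0.30 on top of As2O3, and that of UBE2N was −0.59 and −0.27.

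**Figure D4:**
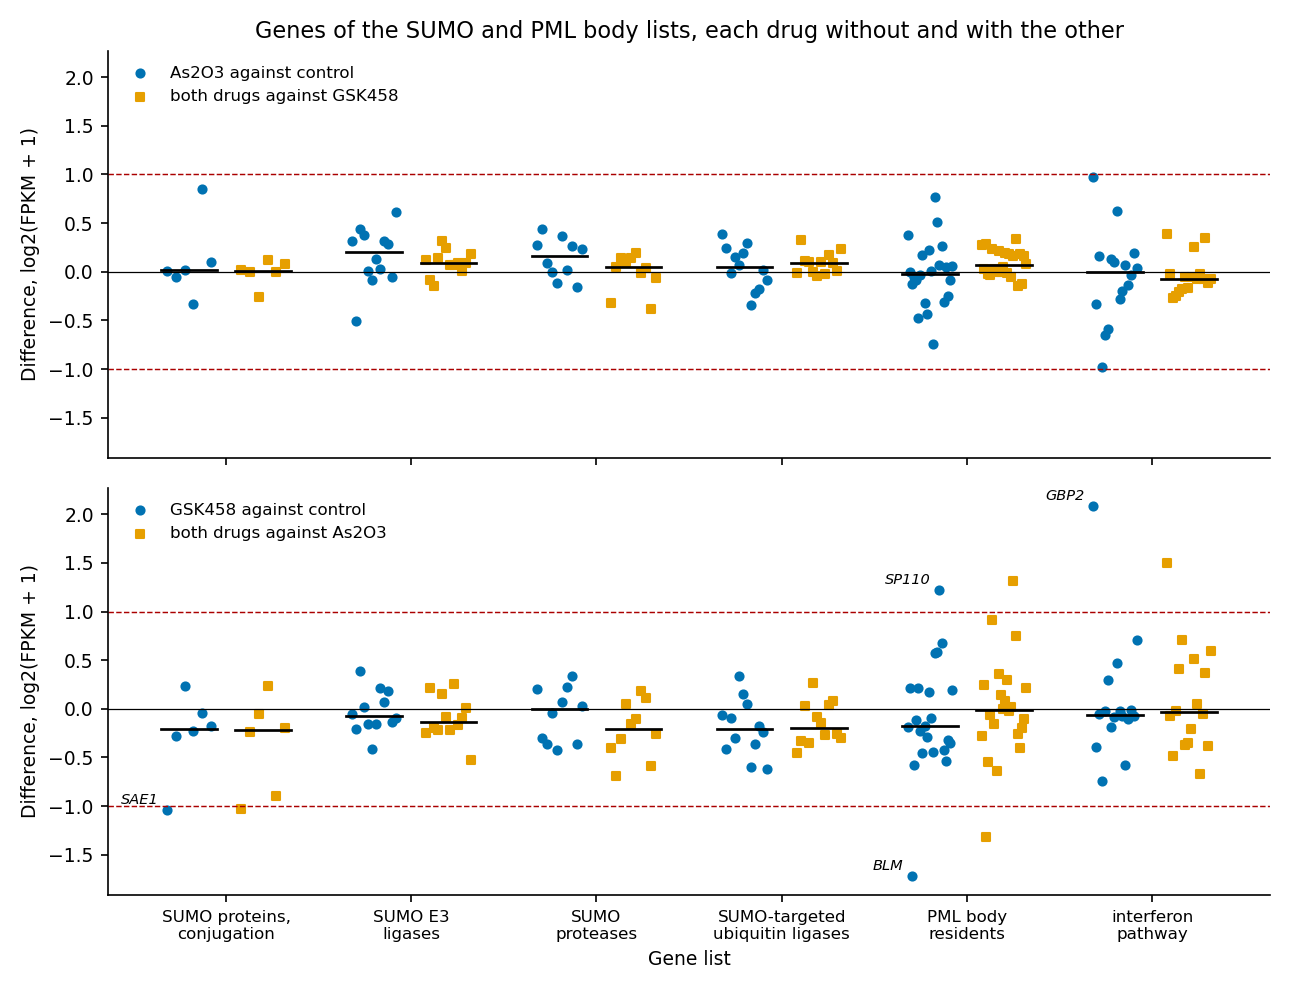
Log2 difference of each tested gene in 6 lists for As2O3 (upper panel) and GSK458 (lower panel), circles for the pair without and squares for the pair with the other drug; black bars are list medians, dashed lines mark 2-fold, and genes past it are named at their circle. SAE1, SP110, BLM and GBP2 pass 2-fold with GSK458 in both pairs, and no gene does so with As2O3.

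PML bodies hold many further proteins, and 22 of 23 genes on that list passed the filter, SP140 being near or at 0. With GSK458 1 gene was at least 2-fold higher and 1 was lower, the median being −0.18, and with As2O3 none was, the median being −0.02. Over all tested genes these medians were −0.01 and 0.01, and 3.87% were at least 2-fold lower with GSK458. BLM, a helicase of homologous recombination, stood at 3.76 FPKM in the control, 3.36 FPKM with As2O3, 0.44 FPKM with GSK458 and 0.75 FPKM with both drugs. Both libraries with GSK458 were far below both others, by −1.72 and −1.32. The mean of BLM reached 1 FPKM only through the libraries without GSK458, where it was high. SP110, a relative of SP100, stood at 2.68 FPKM in the control, 2.86 FPKM with As2O3, 7.57 FPKM with GSK458 and 8.61 FPKM with both drugs. Both libraries with GSK458 were above both others, with log2 differences of 1.22 and 1.32. At this threshold 2.35% of tested genes were higher with GSK458 alone and 2.28% on top of As2O3.

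SP140L, another relative, stood at 2.79 FPKM in the control and at 3.55, 5.07 and 6.66 FPKM in the As2O3, GSK458 and combined cultures. Its log2 difference was 0.68 with GSK458 alone, 0.75 on top of As2O3 and 1.01 for both drugs against the control, a threshold that 3.25% of tested genes passed upward. With a pseudocount of 5 FPKM, SP110, SP140L and BLM were all less than 2-fold apart in every comparison. In RefSeq SP110, SP140, SP140L and SP100 follow each other without another protein-coding gene between them. SP100 differed from its neighbours in that it was already high with As2O3 alone (difference 0.51), where SP110 differed by 0.07 and SP140L by 0.26. CAB39 and ITM2C, which come next among the measured genes beyond SP100, differed with GSK458 by 0.29 and −0.50. Since members of this family are alike in sequence, reads could be shared between them, and their values are uncertain to that extent.

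**Figure D5:**
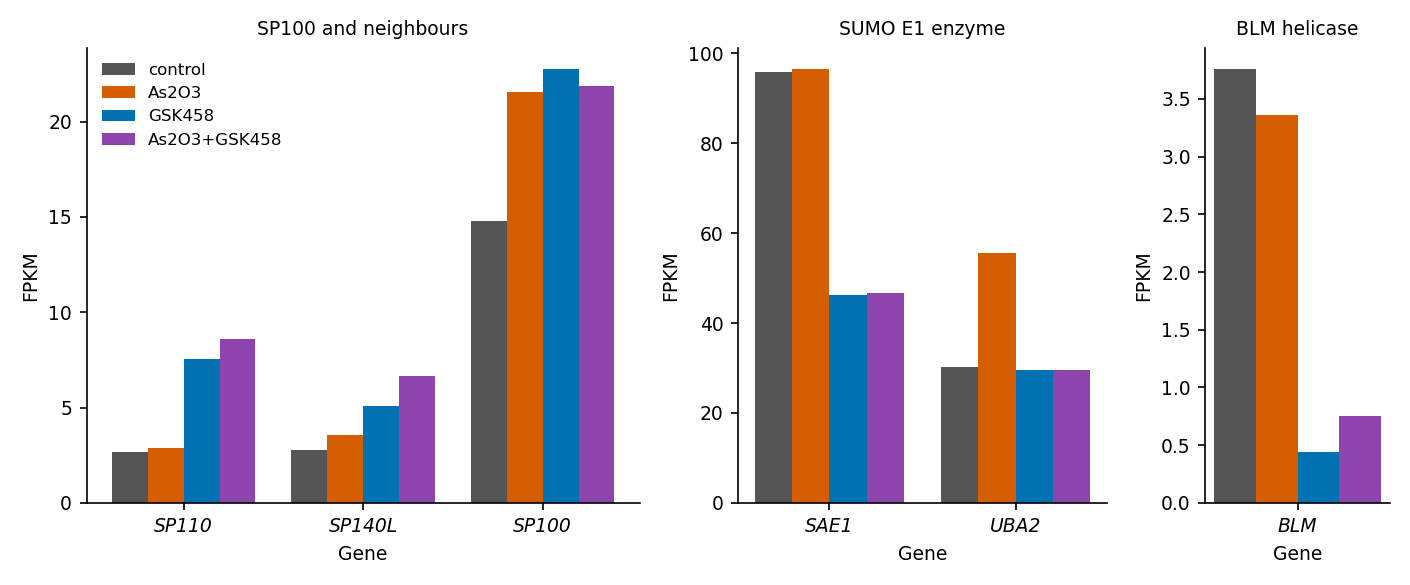
FPKM of SP100 with its neighbours SP110 and SP140L (left), of the SUMO E1 subunits SAE1 and UBA2 (middle) and of BLM (right), 1 bar per library and no error since each group is 1 library; each panel has its own axis from 0. SP110 is near 2.7 to 2.9 FPKM without GSK458 and 7.6 to 8.6 FPKM with it, while SP100 is low only in the control.

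Promoters were read for 6 of the 8 genes from RefSeq sequences (build GRCh38.p14, from 250 bases before to 50 bases after each start), which held SP100, SUMO2, SUMO3, RNF4, RNF111 and PIAS1. PML and DAXX were not found. PML and SP100 are known as interferon-induced genes, so 3 motifs were searched on both strands, namely the interferon-stimulated response element (GAAA, any 2 bases, GAAA), the gamma-activated site TTCNNNGAA and the antioxidant response element TGACNNNGC. They are found in 3.57%, 7.66% and 13.3% of all 35116 promoters. The interferon and gamma motifs were in none of the 6 genes, and the antioxidant motif was in RNF4, at the second of its 2 starts. SP110 held the antioxidant motif at start 1 and the gamma motif at start 2, where it overlaps the shorter motif described next. A shorter interferon motif, GAANNGAAA, was added after the sequences were seen and is found in 7.66% of all promoters. It holds the AANNGAAA core that interferon regulatory factors bind, and it does not occur within the longer motif at the same spacing. It was at start 1 of SP100 and of RNF111 but not at start 2 of either, and also in SP140L and at both starts of SP110. Stretches of 70 bases around it are shown for SP100, whose RNA was high in the treated libraries, for its neighbours and for RNF111, whose RNA was level. The match is in capitals, and TTTCNNTTC is the same motif on the other strand.
SP100 (chr2:230416107-230416176, + strand): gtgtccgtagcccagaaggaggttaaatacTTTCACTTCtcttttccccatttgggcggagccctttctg
SP140L (chr2:230327083-230327152, + strand): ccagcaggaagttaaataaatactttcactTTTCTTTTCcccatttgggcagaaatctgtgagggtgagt
SP110, start 2 (chr2:230219989-230220058, − strand): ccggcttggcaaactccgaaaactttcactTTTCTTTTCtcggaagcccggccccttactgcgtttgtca
SP110, start 1 (chr2:230225702-230225771, − strand): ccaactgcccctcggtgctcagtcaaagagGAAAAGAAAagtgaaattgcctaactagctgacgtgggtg
RNF111 (chr15:58987466-58987535, + strand): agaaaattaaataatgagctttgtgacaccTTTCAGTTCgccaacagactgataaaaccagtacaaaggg

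The match began 64 bases before start 1 of SP100 and 80 before the start of SP140L. It began 44 and 105 bases before starts 2 and 1 of SP110, and 167 before start 1 of RNF111. SP100 and SP140L also share an unbroken stretch of 48 bases further upstream, at chr2:230416000-230416047 for SP100 and chr2:230326965-230327012 for SP140L, printed in capitals because every base is the same in both.
SP100 and SP140L, shared: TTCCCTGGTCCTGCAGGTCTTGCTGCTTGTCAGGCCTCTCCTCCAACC
The longest stretch shared by SP110 and SP140L was 18 bases and spans the match at start 2 of SP110. Between RNF111 and any of these promoters it was at most 10 bases. The motif thus occurs in promoters of genes with different RNA patterns, SP100, SP110 and RNF111 among them, and a match in these letters does not show that a factor binds.

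Other genes of the interferon pathway were read from a list of 20, of which 16 passed the filter. Their median was 0.00 with As2O3, with 8 of 16 above 0, −0.06 with GSK458, with 12 of 16 below 0, and −0.18 with both drugs. Over all 12260 tested genes these medians were 0.01, −0.01 and −0.01. Of those genes, 51.2% were above 0 with As2O3 and 6193 were below 0 with GSK458. ISG15, an interferon-induced modifier, stood at 44.9 FPKM in the control and at 39.1, 42.7 and 40.4 FPKM in the As2O3, GSK458 and combined cultures. IRF2, a transcription factor of the same pathway, stood at 9.45 FPKM in the control and at 15.1, 13.5 and 12.9 FPKM in those cultures. ISG15 was highest in the control and IRF2 lowest there, as PML and SP100 were. GBP2, a guanylate-binding protein, was the single gene of the list at least 2-fold apart on the log2(FPKM + 1) scale. It stood at 0.15 FPKM in the control, 1.25 FPKM with As2O3, 3.85 FPKM with GSK458 and 5.35 FPKM with both drugs. Its mean reached 1 FPKM only through the libraries with GSK458, where it was high, so the filter favoured this call. Its log2 difference was 2.08 with GSK458 alone and 1.49 on top of As2O3, and at these low levels a pseudocount of 5 FPKM made them 0.78 and 0.73, under 2-fold. IFIT1, an antiviral RNA-binding protein, lay just short of that threshold, at 4.62 FPKM in the control and 1.86, 2.36 and 1.83 FPKM in the As2O3, GSK458 and combined cultures. Its differences from the control were −0.98 with As2O3 and −0.99 for the combination, and −1.27 and −1.29 with a pseudocount of 0.1 FPKM.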

How the data were processed

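The authors deposited FPKM values per gene symbol, used here as they stand. The submitters' processing notes name TopHat2 2.1.1, Bowtie2 2.2.8, SAMtools 0.1.18, Cuffdiff 2.2.1 and build hg19 without their order, and per the labels' protocols libraries came from a stranded mRNA kit. Annotation, strand setting and handling of multimapping reads: not given in the sources used here. Groups came from the treatment labels.

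Values were compared as log2(FPKM + 1) over 12260 genes whose mean reached 1 FPKM, with Python 3.11.15, numpy 2.4.6 and pandas 2.3.3. With 1 library per group there was no test, and 2-fold was the threshold. The functions were tested on simulated data. The 8 genes and the lists were chosen with earlier results of these data known. From each list, genes at least 2-fold apart are named, otherwise the 2 farthest, and some genes are not reported here; CAB39, ITM2C, SLTM, UBA2, SENP6, SENP7, ISG15, IRF2 and IFIT1 were named after their values were seen. Alternatives were other pseudocounts (0.1 and 5 FPKM), other filters (none, or a mean of 5 FPKM), 3 scalings and a threshold of 1.5-fold. RefSeq and GENCODE (GRCh38) gave promoters, gene order and overlaps; the build differs from hg19, so no position of the files was used.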

Additional observations from a re-analysis of the deposited data

Results flagged for a closer look

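For 7 named genes of the SUMO, PML body and interferon lists a drug's difference had opposite signs without and with the other drug. Each of these differences was at least 0.1 log2 units in size. Opposite signs of any size were common, in 5066 of the 12260 tested genes with As2O3 and 3493 with GSK458. The share of tested genes at 0.1 log2 units was not counted, and CREBBP, NBN, HIRA and IRF2 were picked after their values were seen. The difference between the pairs was not tested, since each value is 1 library against 1 library. SUMO3 differed with As2O3 by −0.33 without GSK458 and 0.12 with it, and with GSK458 by −0.23 without As2O3 and 0.23 with it. NSMCE2 differed with As2O3 by 0.44 and −0.14, and with GSK458 by 0.39 and −0.19. BLM differed with As2O3 by −0.13 and 0.28, the second at levels below 1 FPKM. CREBBP differed with As2O3 by −0.47 and 0.23. With GSK458, NBN differed by −0.44 and 0.29, HIRA by −0.29 and 0.14, and IRF2 by 0.47 and −0.21.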

How the results depend on the processing

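No difference of the 8 genes reached 2-fold in any of 7 other settings, of which 5 changed the values and the others were filters that changed only which genes were tested. Of their 48 differences 41 kept 1 sign in all of these settings, and the 7 that did not were below 0.1 log2 units in size. With a threshold of 1.5-fold, 1 of the 8 genes was higher in each of As2O3, GSK458 and both drugs against control, and 1 departed below additivity. The call with GSK458 (SP100) and the departure (PML) lay at that threshold and were lost in some settings. With libraries rescaled to a sum of 1000000, the median over the 8 genes was −0.15 for GSK458 against control and −0.013 for the departure from additivity, a scaling that moved the median of all tested genes by −0.11 and 0.13. PML with As2O3 ran from 0.61 to 0.82 over the settings and SP100 with GSK458 from 0.49 to 0.63. No paired analysis was possible because each group has 1 library. Read depth is unknown, so counting error could not be given, and it weighs most on low genes such as BLM, SENP8 and GBP2.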

Other observations

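Some genes of PML body proteins other than the 8 genes are described here and were picked after their values were seen. NBN, a DNA break sensor, was highest in the control, at 7.93 FPKM, and stood at 4.32 FPKM with As2O3, 5.57 FPKM with GSK458 and 5.53 FPKM with both drugs. CREBBP, a histone acetyltransferase, was lowest with As2O3 alone, at 6.44 FPKM, beside 9.32 FPKM in the control, 10.9 FPKM with GSK458 and 13.0 FPKM with both drugs. HIRA, UBN1 and CABIN1, subunits of an H3.3 chaperone complex distinct from that of DAXX, were each highest in the control. The share of all tested genes highest there was not counted. ASF1A, an H3.3 chaperone partner on the same list, was highest with As2O3. It stood at 12.6 FPKM in the control and at 16.6, 11.0 and 13.4 FPKM in the As2O3, GSK458 and combined cultures. CABIN1 stood at 18.6 and 17.8 FPKM without GSK458 and at 12.1 and 11.9 FPKM with it.

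In the interferon list, TRIM21, an antibody receptor and ubiquitin ligase, stood at 11.5 and 11.8 FPKM without GSK458 and at 19.4 and 18.3 FPKM with it, differences of 0.71 and 0.59. TRIM21 was picked after its values were seen. Its RefSeq promoter held 2 overlapping matches of the interferon-stimulated response element, beginning 17 and 23 bases after the start. That motif is found in 3.57% of all promoters. Promoters of GBP2 and IRF2 were not found, and those of the other genes on the list were not read. Whether the motif bears on TRIM21 RNA was not tested.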
